A study of Mus musculus with 4 samples.

Results

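The Eph receptors and ephrins, the class 3 semaphorins with their plexin and neuropilin receptors, and the SLIT ligands with their ROBO receptors are cell guidance genes, and 41 of them were followed through the chromatin loops of mouse granulosa cells. They were chosen by gene family, with earlier results of these data known. A gene was placed at a loop when either annotated end lay within 2.5 kb of a loop anchor in any of the 4 libraries, and 24 of the 41 genes met this. The same held for 9139 of all 21631 protein-coding genes. Loops had been mapped by Micro-C, a chromosome conformation assay that cuts chromatin with micrococcal nuclease and so resolves contacts finely.

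The hCG group (2 libraries) came from 21-day-old mice given 5 IU of eCG (equine chorionic gonadotropin, which the titles call PMSG) to grow their follicles and then 5 IU of hCG (human chorionic gonadotropin) in place of the luteinizing hormone surge, with cells taken 6 h after hCG. The PMSG group (2 libraries) came from mice of the same age after the same dose of eCG, at 0 h of hCG, with no hCG given. The eCG interval was 46 h in one label and 44 h in another. All 4 libraries therefore shared eCG priming, and the labels gave no genotype, strain or sex. Granulosa cells, the somatic cells around the oocyte, were collected by puncturing ovaries, and the labels did not say whether replicates came from separate mice. Any p-value below therefore measures the spread between these libraries, which may be technical.

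The lists held 7664 and 7935 loops in hCG replicates 1 and 2, against 8305 and 6533 in PMSG replicates 1 and 2. Called pixels together held 311016 and 349717 contacts in the hCG libraries, against 393852 and 272470 in the PMSG libraries. At 434 pixels called in all 4 lists, the expected contacts relative to PMSG replicate 1 were 0.591 and 0.743 in hCG replicates 1 and 2, and 0.623 in PMSG replicate 2, so PMSG replicate 1 was the deepest library. Gene ends at loops were found for 11 of 12 granulosa markers (not Cyp19a1), 6 of 8 theca and stroma markers, 1 of 8 endothelial markers, 2 of 6 leukocyte markers and 2 of 7 oocyte markers. A loop is not a measure of expression, and other cells in the punctured material were not counted. In such bulk material a loop formed in more cells and a loop formed more often in each cell cannot be told apart.

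Eph receptors are receptor tyrosine kinases that bind ephrins on the surface of neighbouring cells, and both partners can signal, which sorts cells and changes their adhesion. Class 3 semaphorins are secreted and act through neuropilins, which bind the ligand, and plexins, which carry the signal. SLIT proteins are secreted ligands of ROBO receptors. All of these families are best known from axon guidance and also act in blood vessels. In the ovary, ephrin signalling changes the shape and adhesion of cultured mouse granulosa cells, and SLIT and ROBO have been studied in the corpus luteum.

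The 3 genes whose loops were called in one group and not the other were the ephrin Efnb2 and the receptors Ephb1 and Epha4. Their promoter windows are printed here because the anchor of each such loop held the gene start. Each window runs from 250 bases before the annotated start to 50 bases after it, 5′ to 3′ on the gene's strand, from RefSeq's GRCm38.p6 assembly, and capitals mark CG dinucleotides. The Efnb2 window is chr8:8661193-8661492, that of Ephb1 is chr9:102354644-102354943 and that of Epha4 is chr1:77515039-77515338, all on the minus strand.
Efnb2: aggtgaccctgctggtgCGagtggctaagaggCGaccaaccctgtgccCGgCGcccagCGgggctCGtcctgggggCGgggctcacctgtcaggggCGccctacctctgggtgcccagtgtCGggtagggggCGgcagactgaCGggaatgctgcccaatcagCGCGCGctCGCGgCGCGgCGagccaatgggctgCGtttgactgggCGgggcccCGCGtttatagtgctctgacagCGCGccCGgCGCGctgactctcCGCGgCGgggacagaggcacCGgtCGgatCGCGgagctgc
Ephb1: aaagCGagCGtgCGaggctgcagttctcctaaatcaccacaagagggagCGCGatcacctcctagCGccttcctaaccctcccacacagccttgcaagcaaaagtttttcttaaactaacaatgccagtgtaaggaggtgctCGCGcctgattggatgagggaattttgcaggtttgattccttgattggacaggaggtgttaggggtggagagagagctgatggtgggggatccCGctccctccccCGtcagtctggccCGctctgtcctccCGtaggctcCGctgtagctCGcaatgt
Epha4: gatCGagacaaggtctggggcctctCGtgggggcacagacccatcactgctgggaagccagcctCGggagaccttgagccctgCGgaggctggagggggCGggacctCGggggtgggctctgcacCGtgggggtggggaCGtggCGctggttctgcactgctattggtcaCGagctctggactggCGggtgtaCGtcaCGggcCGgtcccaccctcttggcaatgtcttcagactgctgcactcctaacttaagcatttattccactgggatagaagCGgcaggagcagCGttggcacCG

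The 3 windows differed in composition. Efnb2 had 35 CG dinucleotides and 72.3% G or C, Epha4 had 17 and 64.0%, and Ephb1 had 14 and 55.7%. The median over 17274 coding promoters was 14 CG dinucleotides and 56.3% G or C, and over the 35 guidance genes matched in that table it was 20 and 64.3%. None of the 3 windows held, on either strand, the letters searched for a cAMP response element (TGACGTCA), an AP-1 site (TGANTCA), a site of the NR5A nuclear receptors (CAAGGNCA) or CTCF. These matches occur in 2.37%, 7.14%, 5.84% and 0.550% of all coding promoters of the same length. Among the 35 guidance promoters, the cAMP response element letters were found in Epha2, starting 33 bases before the gene start, and an NR5A match on the other strand (TGGCCTTG) was found in Efnb1, starting 11 bases after it. No guidance promoter held an AP-1 or CTCF match, and the letters alone do not show what binds there.

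Ends of 24 of the 41 guidance genes (58.5%) lay at a loop, beside 42.2% of all protein-coding genes. The guidance genes are long, with a median length of 115 kb against 17.3 kb for all protein-coding genes, and those with a loop (median 131 kb) were longer than those without (40.5 kb). By role, a loop was found for 4 of 8 ephrins, 9 of 14 Eph receptors, 4 of 7 class 3 semaphorins, 5 of 7 plexins and neuropilins, 2 of 3 SLIT genes and neither ROBO gene. By library, 17 and 17 genes had a loop in the hCG libraries, against 19 and 13 in the PMSG libraries. These were 41.5% and 41.5% of the guidance genes in the hCG libraries, and 46.3% and 31.7% in the PMSG libraries, beside 26.6% and 27.0%, and 27.2% and 21.7%, of all protein-coding genes in the same libraries. The 4 counts followed the length of the lists, and the 2 groups overlapped.

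**Figure D1:**
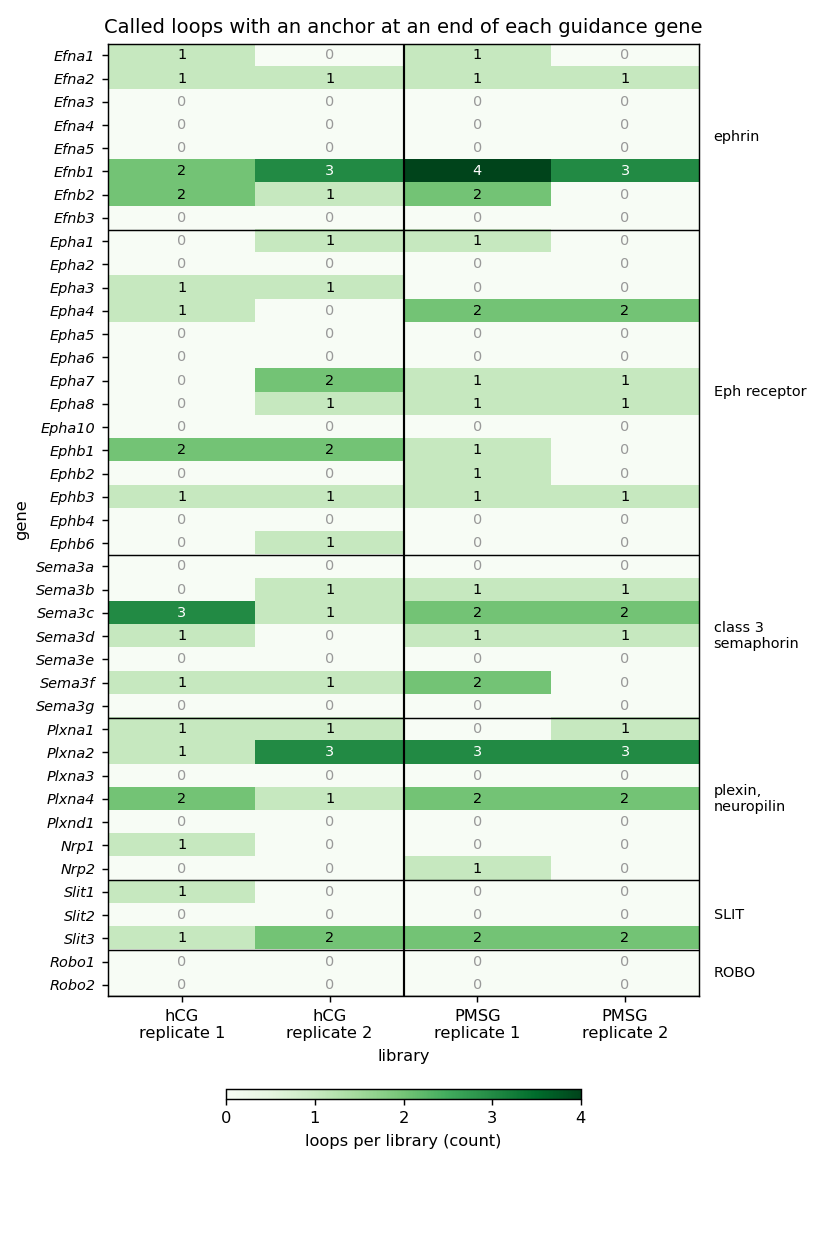
Number of called loops with an anchor within 2.5 kb of either end of each guidance gene (rows, grouped by role) in each library (columns, hCG left of PMSG). Efnb1, Plxna2 and Sema3c reach 3 or 4 loops in a library, and 17 rows are at 0 in all 4 libraries.

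The loops at these genes formed 44 distinct loops, counting as 1 loop all calls whose anchor midpoints lay within 20 kb at both ends. Of these, 12 were found in all 4 libraries, 10 in 3, 4 in 2 and 18 in 1 library. At 12 of the 44, another gene also had an end at the anchor of the guidance gene, so these cannot be assigned to 1 gene. They were the loops of Efna2, Efnb2, Epha1, Ephb6, Sema3b, Sema3f, Plxna1 and Slit1. A loop was called hCG-only when both hCG lists and neither PMSG list held it, and PMSG-only in the reverse case. Of the 24 genes with a loop, 2 (Efnb2 and Ephb1, 8.33%) had an hCG-only loop, beside 8.31% of all genes with a loop. Epha4 alone (1 of 24, 4.17%) had a PMSG-only loop, beside 5.46% of all genes with a loop. A loop of all 4 libraries was found at 10 of 24 genes (41.7%), beside 41.8%. The shares of the guidance genes in the 3 classes were thus close to those of all genes. With 1 library left out in turn, a class rests on a single library on one side. The hCG-only count was then 5, 5, 4 and 3, and the PMSG-only count 3, 5, 3 and 8, without hCG replicate 1, hCG replicate 2, PMSG replicate 1 and PMSG replicate 2 in that order. Across all genes these shares were 25.7%, 24.7%, 21.5% and 11.4% for hCG-only loops and 10.2%, 11.3%, 15.6% and 25.1% for PMSG-only loops.

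Efnb2 encodes ephrin-B2, a membrane-bound ligand of EphB receptors that marks arterial endothelium. Its hCG-only loop joined chr8:8450001-8475000 to chr8:8650001-8675000 in mm10 (25 kb bins, span 200 kb), the second anchor holding the Efnb2 start. hCG replicates 1 and 2 had 80 and 85 contacts there, where the ring of surrounding pixels (the donut) predicted 33.5 and 38.6. The ratios of observed to expected contacts were 2.39 and 2.20. No loop was called at this position in either PMSG list. The closest call in PMSG replicate 1 left the same anchor in the opposite direction, to chr8:8975001-9000000 (span 325 kb, 67 contacts against 25.6 expected). The closest call in PMSG replicate 2 ended at the same far bin but began 1 bin away, at chr8:8675001-8700000, with 43 contacts against 15.5 expected. The anchor at Efnb2 also held an end of Arglu1, which encodes an arginine- and glutamate-rich nuclear protein, so the loop cannot be assigned to 1 of these 2 genes.

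Efnb2 also had a loop of about 2 Mb in 1 library of each group. It spanned 2100 kb in hCG replicate 1, with 28 contacts against 6.67 expected, and 2075 kb in PMSG replicate 1, with 40 against 8.47. The far anchors were 25 kb apart, which is beyond the 20 kb match distance, so these calls stayed separate.

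Ephb1 encodes a receptor of B-class ephrins. Its hCG-only loop joined chr9:101300001-101325000 to the gene start at chr9:102350001-102375000 (25 kb bins, span 1050 kb). hCG replicates 1 and 2 had 27 and 31 contacts there, against 5.36 and 6.64 expected, so the ratios were 5.04 and 4.67. The far bin also carried a loop in PMSG replicate 1, from there to chr9:102000001-102025000 inside Ephb1 (36 contacts against 9.54 expected). In PMSG replicate 2 the closest call lay 382.5 kb away at its farther anchor.

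A second, shorter Ephb1 loop of 660 to 675 kb was found in all 4 libraries. It had 15 contacts against 1.83 expected and 53 against 14.0 in the hCG libraries, and 33 against 4.69 and 22 against 3.55 in the PMSG libraries. The call of hCG replicate 2 was made in 25 kb bins and the others in 10 kb bins. The anchor of PMSG replicate 2 began at 102360001, beyond 2.5 kb from the gene end.

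Epha4 encodes a receptor that binds ephrins of both classes. Its PMSG-only loop joined chr1:75920001-75925000 to chr1:77515001-77520000 in PMSG replicate 1 (5 kb bins, span 1595 kb) and spanned 1590 kb in 10 kb bins in PMSG replicate 2. The 2 PMSG libraries had 16 contacts against 1.36 expected and 18 against 2.70, which gave ratios of 11.7 and 6.66. Neither hCG list held it. A longer loop of 1850 to 1860 kb from the same gene end had 36 contacts against 8.06 expected in hCG replicate 1, and 18 against 3.38 and 35 against 7.89 in PMSG replicates 1 and 2. In hCG replicate 2 no loop was called at either Epha4 end, and the closest call to the PMSG-only loop lay 1957.5 kb away at its farther anchor.

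These 3 genes kept their class in all 15 other settings tried. In the 4 of these that leave out a library this follows from the definition, since each class then asks less. Most of the other settings left little room for change, so the kept class adds little evidence. The calls of each loop had anchor midpoints at most 2.5 kb apart. The closest call of the other group was 260 kb or more away at its farther anchor. Every call held the gene start at an anchor, and the largest FDR was 0.00653. A call in one list and none in another does not show that the contact was absent there, because the contacts at that pixel in the other library are not in the lists and were not analysed here.

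**Figure D2:**
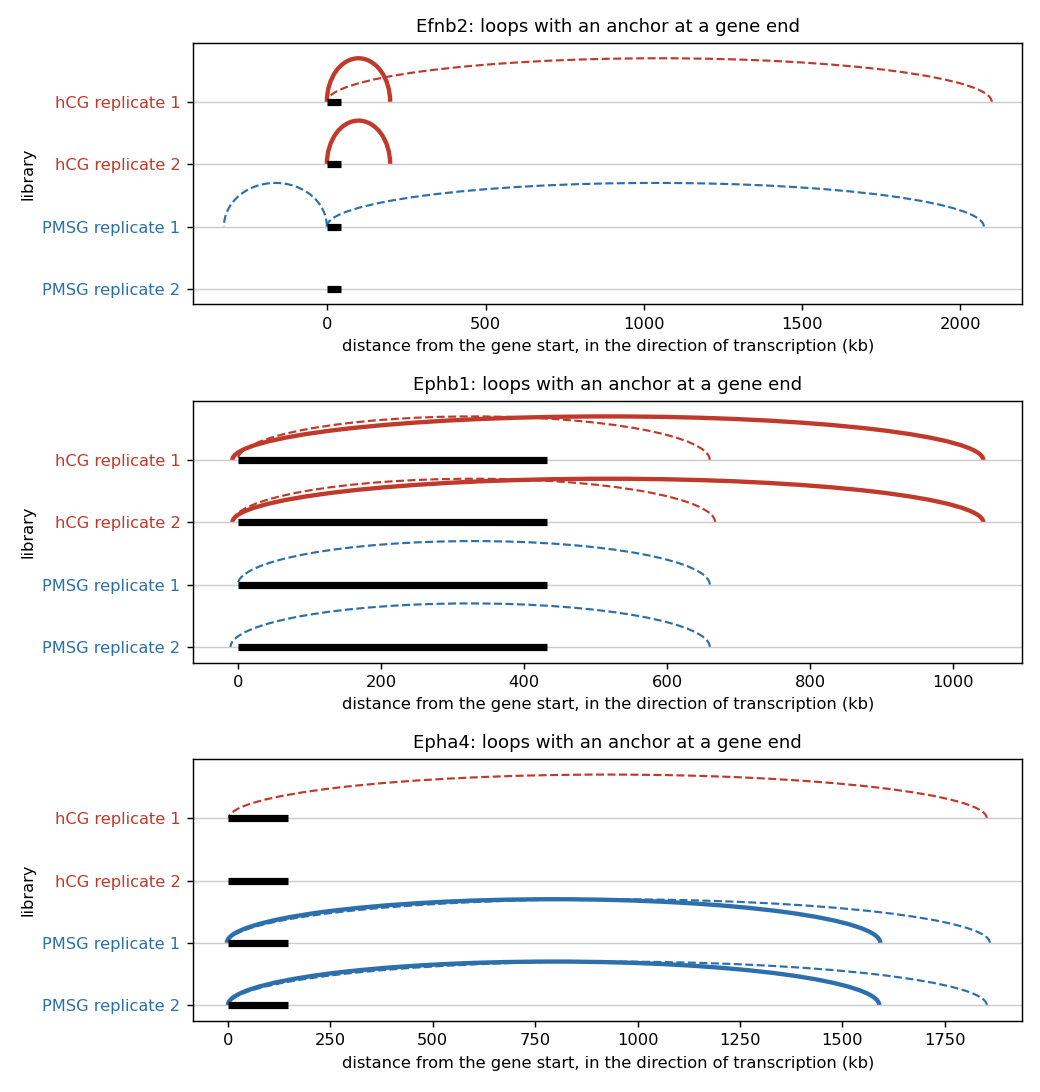
Arcs join the anchor midpoints of every loop with an anchor at an end of Efnb2, Ephb1 or Epha4, by library (hCG rows above PMSG rows), against distance from the gene start in kb; the black bar is the gene. Thick arcs are the hCG-only loops of Efnb2 (200 kb) and Ephb1 (1050 kb) and the PMSG-only loop of Epha4 (1590 to 1595 kb), and dashed arcs are all other loops.

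Among the other ephrins, Efnb1, the X-linked B-class ephrin, had 4 distinct loops, all from the anchor at its start. Its loop of 385 to 390 kb had 13 and 14 contacts against 1.03 and 1.79 expected in the hCG libraries, and 43 and 13 against 9.56 and 1.16 in the PMSG libraries. Its loop of 520 to 525 kb had 42 and 19 contacts against 13.9 and 3.70 expected in the hCG libraries, and 25 and 48 against 5.56 and 12.1 in the PMSG libraries. Both loops were in all 4 libraries, and the spread in contacts went with bin size. A 440 kb loop was in hCG replicate 2 and both PMSG libraries, and a 225 kb loop in PMSG replicate 1 alone.

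Efna2, a lipid-anchored A-class ephrin, lay at a loop of 65 to 70 kb in all 4 libraries whose far anchor held ends of Ndufs7, a subunit of mitochondrial complex I, and of Pwwp3a. In hCG replicate 1 and both PMSG libraries the anchor at Efna2 also held ends of Cirbp and Fam174c. Efna1, another A-class ephrin, had a 35 kb loop to ends of Krtcap2 and Trim46 in hCG replicate 1 (15 contacts against 4.44 expected) and PMSG replicate 1 (33 against 9.74). The neighbouring Efna3 and Efna4 had no anchor at an end and were spanned by 1 loop of PMSG replicate 1. Efna5, an A-class ephrin whose loss impairs ovarian function in mice, and Efnb3 had no loop at an end, none with an anchor in the gene and none spanning it.

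Among the Eph receptors, Ephb3 had 1 loop of 190 to 195 kb, with its start at the anchor, in all 4 libraries. It had 18 and 23 contacts against 2.45 and 3.22 expected in the hCG libraries, and 34 and 40 against 3.99 and 6.33 in the PMSG libraries. The ratios were 7.34 and 7.15 in the hCG libraries and 8.53 and 6.32 in the PMSG libraries, so the groups overlapped. Epha3 lay at an 850 to 875 kb loop of all 4 libraries, although its gene end was within 2.5 kb of the anchor only in the hCG libraries, where 25 kb bins were called, and not in the PMSG libraries, where 10 kb bins were called. Epha8 lay at a loop of 50 to 85 kb counted in all 4 libraries. The call of hCG replicate 1 had no Epha8 end at its anchor and lay up to 22.5 kb from the PMSG calls, and it joined them only through 2 calls of hCG replicate 2 (80 and 50 kb). In the calls with an Epha8 end, from hCG replicate 2 and both PMSG libraries, the far anchor held an end of Zbtb40, a zinc finger gene. An end of C1qa, a complement gene, lay at an anchor only of the hCG calls that had no Epha8 end. No call therefore joined an Epha8 end to C1qa.

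Epha7 had 4 distinct loops and none that matched between libraries. They were 500 and 50 kb loops in hCG replicate 2 (53 contacts against 20.5 expected, and 35 against 13.7), a 475 kb loop in PMSG replicate 1 (59 against 22.0) and a 325 kb loop in PMSG replicate 2 (77 against 31.0). The 500 and 475 kb loops shared the bin at Epha7 and had far anchors in neighbouring 25 kb bins, beyond the 20 kb match distance. Epha1 had a 200 kb loop in hCG replicate 2 and a 225 kb loop in PMSG replicate 1, both to a bin holding an end of Tcaf3. Ephb2 had an end at a 400 kb loop of PMSG replicate 1, and Ephb6, a receptor without kinase activity, at a 575 kb loop of hCG replicate 2. In hCG replicate 2 a 375 kb loop ran from the next 25 kb bin, inside Ephb2, to the far bin of that 400 kb loop. It had 57 contacts against 23.7 expected, and the 2 calls did not match at 20 kb. Ephb2 also had a loop of 160 to 170 kb, from inside the gene to just upstream of its start, in all 4 libraries (13 and 21 contacts against 2.30 and 3.07 expected in the hCG libraries, and 25 and 32 against 5.14 and 6.63 in the PMSG libraries). Epha2, Epha5, Epha10 and Ephb4 had no anchor in the gene or at an end.

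Sema3c had 5 distinct loops at its ends, the most of the guidance genes by that count. Its loop of 170 to 185 kb, which ran from its start past its other end, was in all 4 libraries, with 88 and 29 contacts against 39.3 and 8.10 expected in the hCG libraries, and 128 and 19 against 50.1 and 2.24 in the PMSG libraries. A loop of 50 to 60 kb was in both hCG libraries and PMSG replicate 1, with 41 and 39 contacts against 11.7 and 15.2 expected and 49 against 17.6. Only in hCG replicate 1 did this loop have a Sema3c end within 2.5 kb of an anchor. A 225 kb loop was in hCG replicate 1 alone, with 78 contacts against 34.7 expected. Loops of 600 and 625 kb, 1 in each PMSG library, had 61 contacts against 20.3 expected and 55 against 17.2. These last 2 did not match at 20 kb and did at 25 kb, where Sema3c joined the PMSG-only genes.

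Sema3b and Sema3f, neighbours on chromosome 9, were joined to the same bin between them, chr9:107640001-107645000. The Sema3b loop (40 kb) was in hCG replicate 2, with 22 contacts against 5.28 expected, and in the PMSG libraries, with 27 against 9.78 and 15 against 2.72. The Sema3f loop (35 kb) from this bin was in both hCG libraries, with 18 contacts against 4.71 expected and 26 against 6.71. In PMSG replicate 1 it was shifted by 5 kb at both anchors (30 contacts against 8.06 expected), and PMSG replicate 2 had none at Sema3f. PMSG replicate 1 also had a 50 kb call counted in the same distinct loop (73 contacts against 36.7 expected). With matching by overlapping anchors Sema3f joined the hCG-only genes, then 3 of 24, beside 9.38% of all genes with a loop. Sema3d had an end at a 350 kb loop in hCG replicate 1 and both PMSG libraries.

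The interiors of Sema3d and Sema3a, both genes of secreted ligands on chromosome 5, were joined to each other in all 4 libraries. In hCG replicate 1 the loop ran from chr5:12550001-12575000 to chr5:13400001-13425000 (850 kb), and in hCG replicate 2 it was called in 10 kb bins (830 kb). The contacts were 50 and 20 against 16.9 and 3.02 expected in the hCG libraries, and 53 and 62 against 15.0 and 21.1 in the PMSG libraries. A longer loop between the 2 genes, of 1020 to 1025 kb, was in hCG replicate 1 (24 contacts against 4.81 expected) and in both PMSG libraries (25 against 4.42 and 16 against 1.54). Sema3a had no end at a loop, and Sema3e, the ligand of plexin D1, had no loop of any kind. The only other call that joined 2 guidance genes was a 1425 kb loop between Robo1 and Robo2 in PMSG replicate 1 (36 contacts against 11.3 expected).

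Of the receptors for semaphorins, Plxna2 had 3 distinct loops. The loop of 60 to 65 kb from inside the gene to its far end was in all 4 libraries, with 20 and 47 contacts against 3.35 and 17.9 expected in the hCG libraries, and 66 and 22 against 21.6 and 4.19 in the PMSG libraries. Loops from one gene end to the other (190 to 210 kb) and from the start into the gene (100 kb) were in hCG replicate 2 and both PMSG libraries. The end-to-end loop had 27 contacts against 7.30 expected in hCG replicate 2, and 25 against 7.03 and 23 against 5.14 in the PMSG libraries. Plxna4 had a loop of 260 to 270 kb at one end in all 4 libraries, and a 650 kb loop in hCG replicate 1 and both PMSG libraries. Plxna1 had a loop of 190 to 200 kb in both hCG libraries and PMSG replicate 2.

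Nrp1 and Nrp2, which also bind vascular endothelial growth factors, each had an end at a loop in 1 library, a 130 kb loop in hCG replicate 1 for Nrp1 and a 775 kb loop in PMSG replicate 1 for Nrp2. A further Nrp2 loop of 130 to 150 kb, from inside the gene, was in all 4 libraries, with 27 and 35 contacts against 6.57 and 8.94 expected in the hCG libraries and 38 and 32 against 12.7 and 8.77 in the PMSG libraries. Plxna3 and Plxnd1 were spanned by loops in all 4 libraries and had no anchor in the gene or within 2.5 kb of an end.

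Slit3 had 2 loops of all 4 libraries at its start, running in opposite directions (in hCG replicate 1 the anchor of the second began beyond 2.5 kb from the start). The upstream one, of 270 to 275 kb, had an end of Spdl1, a gene of mitosis, at its far anchor in both hCG libraries and PMSG replicate 2. The other ran 280 to 290 kb into the gene and was the one loop at a guidance-gene end whose bin size was equal in all 4 lists. It had 12 and 19 contacts in the hCG libraries, against 30 and 28 in the PMSG libraries, and 2.04 and 2.22 expected against 3.46 and 2.37. The ratios were 5.89 and 8.57 in the hCG libraries, and 8.67 and 11.8 in the PMSG libraries. Both PMSG ratios were above both hCG ratios. edgeR's quasi-likelihood test over 1366 such loops, with the expectation as offset, gave a log2 fold change of -0.45 (hCG over PMSG, SE 0.30) and an adjusted p of 0.836, so the difference did not pass. Without hCG replicate 1 the log2 fold change was -0.22, without hCG replicate 2 -0.76, without PMSG replicate 1 -0.69 and without PMSG replicate 2 -0.25, and none passed (edgeR adjusted p from 0.813 to 0.999).

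Slit1 had an end at a 100 kb loop in hCG replicate 1 alone, whose anchors both held ends of Lcor, a nuclear receptor corepressor gene. A second Slit1 loop, of 105 to 110 kb from inside the gene to beyond one of its annotated ends, was in all 4 libraries, with 24 and 22 contacts against 3.09 and 4.01 expected in the hCG libraries and 41 and 17 against 7.06 and 2.34 in the PMSG libraries.

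The edgeR test called no loop (0% of 1366) at an adjusted p of 0.05, with 91 at an unadjusted p under 0.05, and DESeq2 called 0 with 5 unadjusted. The median log2 fold change over all loops was 0.15, and 0.09, 0.20, 0.0018 and 0.25 without hCG replicate 1, hCG replicate 2, PMSG replicate 1 and PMSG replicate 2 in that order. With loops allowed any bin size, and the median ratio of each bin size added to the offset, 3859 loops were tested and 0% called. The 12 guidance-gene loops of all 4 libraries entered this fit, with log2 fold changes from -0.45 at Slit3 to 0.42 at Epha8 and adjusted p from 0.903 to 0.998 by edgeR. Their median was -0.09, beside 0.11 over all loops, and 3 of the 12 lay above that median and 9 below.

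**Figure D3:**
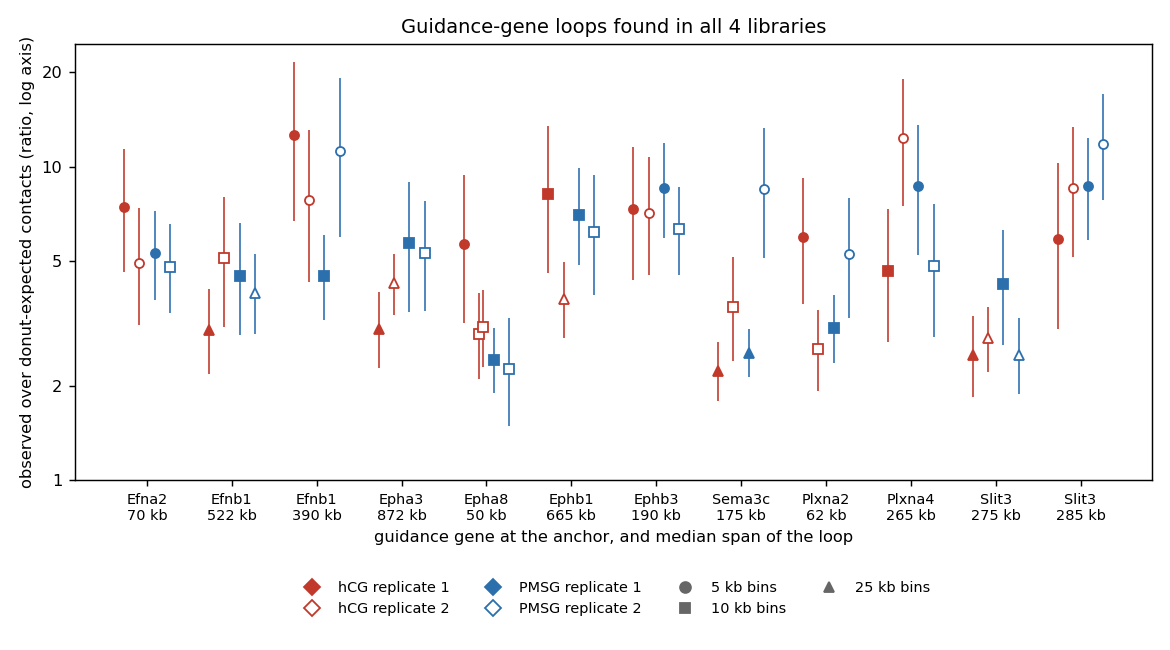
Ratio of observed to donut-expected contacts (log axis) at the 12 guidance-gene loops found in all 4 libraries, hCG left of PMSG within each loop, with exact Poisson 95% intervals of the observed count. Marker shape gives the bin size. At every loop an hCG interval overlaps a PMSG interval, and loops called in 25 kb bins have lower ratios than loops called in 5 kb bins.

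Per 1000 called loops, guidance genes had 3.00 and 3.02 loops in the hCG libraries (23 and 24 loops), against 3.61 and 3.21 in the PMSG libraries (30 and 21). The means were 3.01 ± 0.0166 and 3.41 ± 0.281 (SD, n = 2 each), a difference of -0.401 (exact permutation test, two-sided, p = 0.333, the smallest this design can give). The Wilson 95% interval was 2.00 to 4.50 for hCG replicate 1 and 2.53 to 5.15 for PMSG replicate 1, wider than the difference.

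The median span of loops at guidance-gene ends was 225 and 200 kb in the hCG libraries, against 277.5 and 275 kb in the PMSG libraries. The means were 212.5 ± 17.7 and 276.25 ± 1.77 kb (SD, n = 2 each), a difference of -63.75 kb with no overlap between groups (exact permutation test, two-sided, p = 0.333). Over all loops at protein-coding gene ends, the medians were 130 and 145 kb in the hCG libraries, against 160 and 170 kb in the PMSG libraries. The order of the groups was therefore the same across all genes. Loops called in 25 kb bins made up 52.2% and 37.5% of guidance-gene loops in the hCG libraries, against 33.3% in each PMSG library. Over all loops at protein-coding gene ends these shares were 34.7% and 32.8% in the hCG libraries, against 28.9% and 40.7% in the PMSG libraries, where the groups overlapped. The part of bin size in the spans was not tested.

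**Figure D4:**
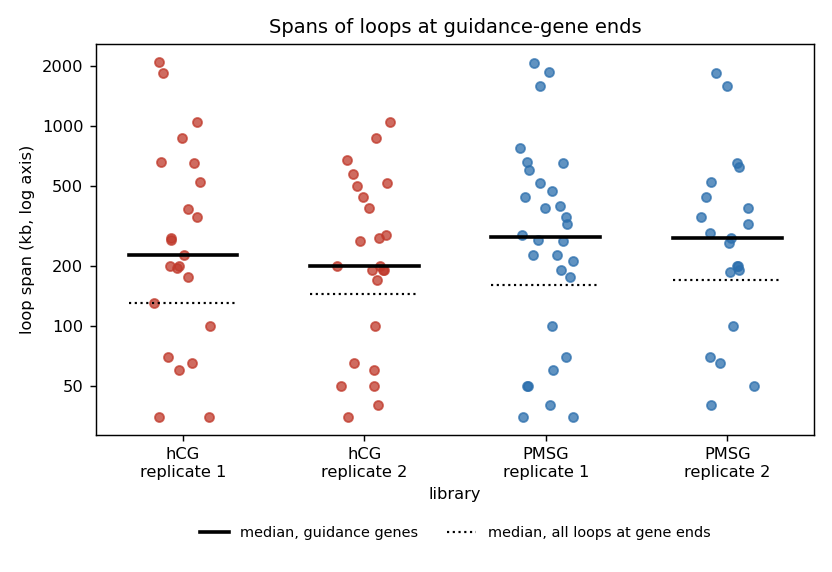
Span of every loop at an end of a guidance gene (points, kb, log axis) by library, hCG left of PMSG, with the median of these loops (solid line) and of all loops at protein-coding gene ends (dotted line). The solid medians are 225 and 200 kb in hCG, and 277.5 and 275 kb in PMSG.

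Of the 17 guidance genes with no end at a loop, 5 had an anchor inside the gene (Epha6, Sema3a, Slit2, Robo1 and Robo2), 7 were only spanned by a loop (Efna3, Efna4, Epha2, Epha5, Sema3g, Plxna3 and Plxnd1), and 5 had neither (Efna5, Efnb3, Epha10, Ephb4 and Sema3e). Whole loops lay inside 9 of the 21 guidance genes of 100 kb or more (42.9%), beside 23.8% of all protein-coding genes of that length. The median length was 278 kb for these guidance genes and 172 kb for all such genes, and the part of length in the share was not tested. Robo1 and Robo2, the receptors of the SLIT ligands, are 1020 and 1555 kb long and held most of these loops. Robo1 held 12 distinct loops, with 6 and 5 in the hCG libraries and 6 and 2 in the PMSG libraries. Its 250 kb loop had 28 and 24 contacts against 4.12 and 4.55 expected in the hCG libraries, and 31 and 32 against 4.59 and 5.08 in the PMSG libraries. That loop and another of 310 to 330 kb were in all 4 libraries, and neither Robo1 nor Robo2 held an hCG-only or PMSG-only loop.

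Robo2 held 7 distinct loops, with 2 and 2 in the hCG libraries and 3 and 5 in the PMSG libraries. Its loop of 185 to 190 kb, in all 4 libraries, had 29 and 35 contacts against 7.71 and 8.997 expected in the hCG libraries, and 23 and 21 against 3.54 and 2.48 in the PMSG libraries. The hCG calls were made in 10 kb bins and the PMSG calls in 5 kb bins, so bin size and group cannot be told apart here. The remaining 6 Robo2 loops were in 1 to 3 libraries.

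Counting any anchor inside a gene, 29 of the 41 guidance genes had a loop, beside 45.5% of all genes. This count was chosen after the data were seen. Of the 29, 3 (10.3%) had an hCG-only loop, 4 (13.8%) a PMSG-only loop and 17 (58.6%) a loop of all 4 libraries. Over all genes with such an anchor these shares were 9.17%, 6.33% and 46.1%. The guidance genes are longer than all genes (median 115 kb against 17.3 kb), and the part of length in these counts was not tested. Slit3 was the added hCG-only gene, with a 225 kb loop inside the gene (55 and 73 contacts against 23.6 and 34.0 expected in the hCG libraries). PMSG replicate 2 had a 210 kb loop there that missed the match by 2.5 kb, since its farther anchor was 22.5 kb away (25 contacts against 5.07 expected).

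The added PMSG-only genes were Epha6, Plxna4 and Slit2. Inside Epha6, a 750 kb loop had 13 contacts against 1.28 expected and 27 against 5.69 in the PMSG libraries, and the closest hCG call was 597.5 kb away at its farther anchor. Inside Slit2, a 100 kb loop had 107 contacts against 43.5 expected and 26 against 8.79, and the hCG libraries had from the same first bin a 200 kb loop instead (42 and 55 contacts against 16.6 and 20.7 expected). A match to that 200 kb loop was also in PMSG replicate 2 (220 kb, 20 contacts against 3.93 expected). From Plxna4, a 375 kb loop had 55 contacts against 19.3 expected and 40 against 12.2 in the PMSG libraries.

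**Figure D5:**
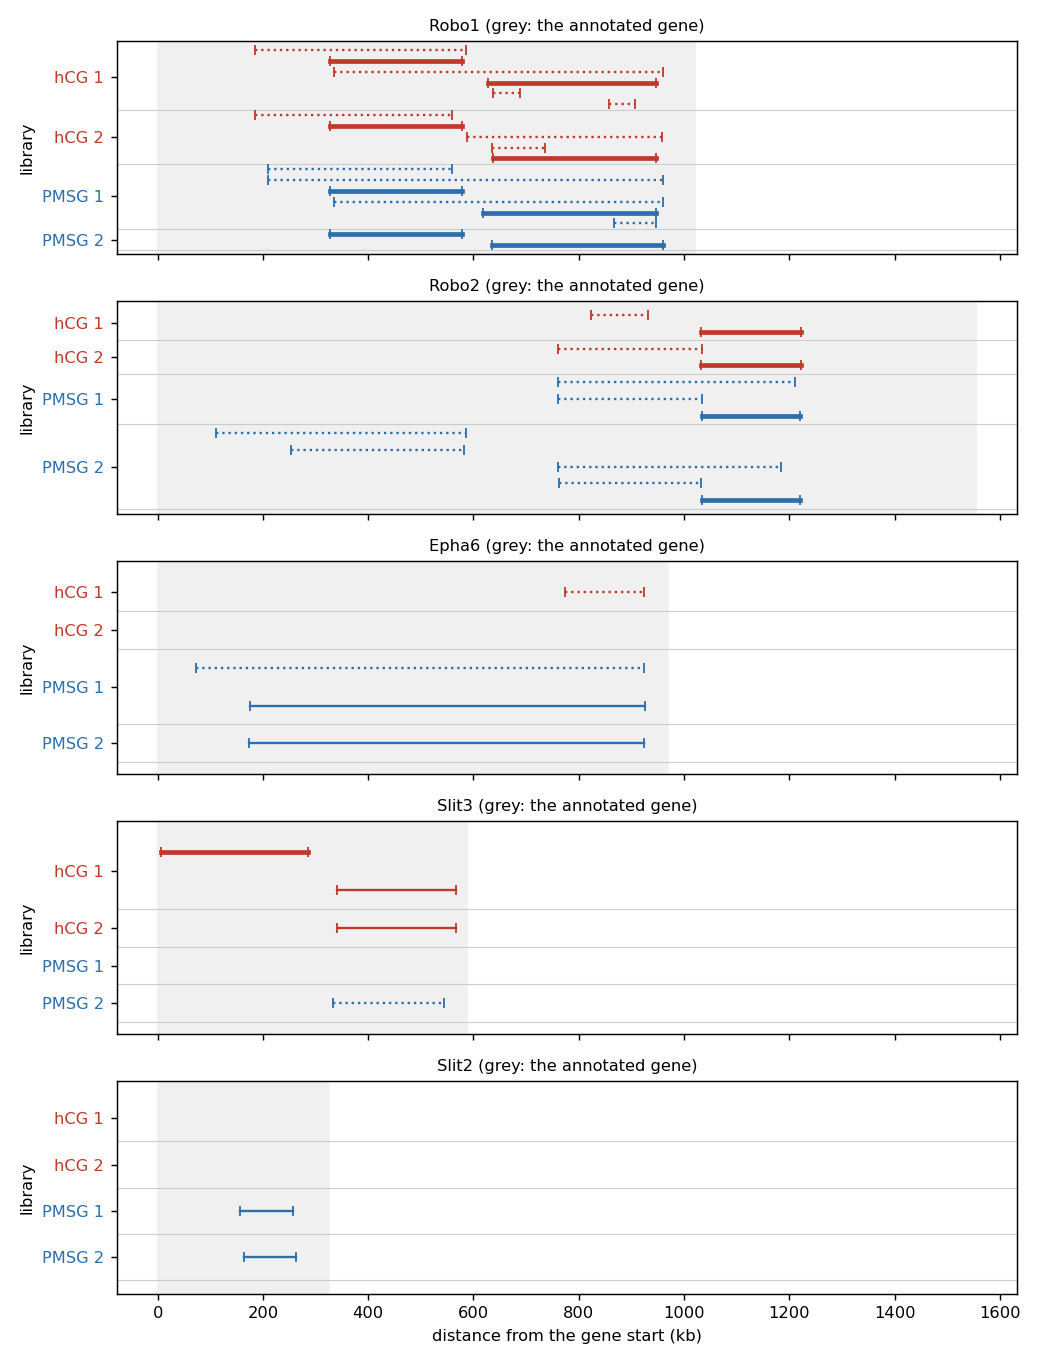
Loops lying wholly inside Robo1, Robo2, Epha6, Slit3 and Slit2, each drawn between its anchor midpoints against distance from the gene start (kb), by library with hCG above PMSG; grey marks the gene. Thick lines are loops of all 4 libraries, thin solid lines hCG-only or PMSG-only loops, and dotted lines all others. The thick Slit3 line appears once because in the other 3 libraries its first anchor reached past the gene start.

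The other genes of the pathways were counted in the same way. Over all genes, as above, 42.2% had a loop, and of those with a loop 8.31% had an hCG-only loop, 5.46% a PMSG-only loop and 41.8% a loop of all 4 libraries. Of 17 other semaphorins and plexins, 9 had a loop and 4 of these a loop of all 4 libraries, and Sema5a had an hCG-only loop. Of 14 netrins, their receptors and other SLIT receptors, 8 had a loop and 1 of these a loop of all 4 libraries, and Dcc, a netrin receptor, and Unc5b, another netrin receptor, had PMSG-only loops. Of 30 intracellular effectors, 21 had a loop and 15 of these a loop of all 4 libraries. Among these, Fes (a tyrosine kinase), Nck2 (an adaptor) and Srgap3 (a GTPase activator downstream of ROBO) had hCG-only loops, and Crmp1, a mediator of semaphorin signalling, had a PMSG-only loop. No gene of these 3 lists had loops of both classes.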

How the data were processed

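Micro-C loop lists of 4 libraries were analysed, 1 list per library, grouped by sample title as hCG (2) and PMSG (2). Per the labels' protocols, the Dovetail kit was used, and each sample had 2 to 3 technical replicates, not given apart in the lists. The submitters' processing notes name BWA, Juicer and the mm10 build, and per the file headers juicer_tools 1.22.01 wrote the lists. Caller settings were not given in the sources used here. Per the file headers, each loop has its observed contact count, a raw whole number, and an expected signal from 4 neighbourhoods. The FDR of each comparison is deposited as a q-value, all below 0.1. The deposited score, a number of collapsed pixels, was not used.

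Span was the distance between anchor midpoints. Connected sets of loops with both midpoints within 20 kb formed 1 distinct loop. Genes came from RefSeq (GRCm38.p6, 21631 protein-coding genes). Loop strength was tested with edgeR 4.0.16 in R 4.3.3 (quasi-likelihood, log donut expectation as offset, Benjamini-Hochberg over all loops), with DESeq2 1.42.0 as an alternative, and other steps used Python 3.11.15 with pandas 2.3.3, numpy 2.4.6, scipy 1.17.1 and matplotlib 3.10.9. Both matching and fit were run on simulated data. The simulated lists for matching held well separated loops in 5 kb bins only, so matching across bin sizes was not tested. Intervals cover counting error within a library only and not the spread between libraries. Contacts can include PCR copies, which were not examined. The named genes were all 41 members of the list, with values per library for genes at hCG-only or PMSG-only loops and the 5 genes with most loops, and the members and all gene lists were chosen with earlier results of these data known. The replicate numbers were not taken as pairs in the main fit. The correlation of same-numbered libraries' deviations was -0.008. This value cannot show that the libraries were unpaired, because a shift shared by all loops leaves it unchanged. The alternatives were other match distances, matching by overlap, a stricter FDR, lists of equal length, other gene end windows, gene starts alone, left-out libraries and other fits.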

Additional observations from a re-analysis of the deposited data

How the results depend on the processing

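Efnb2 and Ephb1 stayed at an hCG-only loop and Epha4 at a PMSG-only loop in all 15 settings, while the number of other genes in a class varied. As said above, most settings left little room for these 3 genes to change class. Percentages in brackets are the shares of all genes with a loop in the same setting. The PMSG-only count of 1 of 24 (5.46%) became 3 of 24 with matching within 50 kb (4.87%, Nrp2 and Sema3c added). It was also 3 of 24 within 25 kb (5.59%), a distance chosen after seeing the data. At an FDR of at most 0.01 in all 4 comparisons it was 2 of 21 (6.11%). It was 3 of 28 with gene ends within 10 kb (5.97%) and 4 of 29 with any anchor in the gene (6.33%). The count at loops of all 4 libraries was 10 of 24 (41.8%). It became 6 of 24 (18.9%) with matching by overlapping anchors and 17 of 29 (46.1%) with any anchor in the gene. Leaving out 1 library gave 3 to 5 hCG-only genes, 3 to 8 PMSG-only genes and 11 at loops of all libraries kept. Over all genes with a loop the shares were then 11.4% to 25.7%, 10.2% to 25.1% and 45.7% to 50.5%, in that order. The difference in loops per 1000 was 0.0540 at an FDR of at most 0.01, the one setting with hCG higher, and -0.599 to -0.202 with a library left out. The span difference was negative in all settings tried, from -76.25 to -51.25 kb with a library left out. Loop strength gave 3 calls with the highest of the 4 expectations and 0 to 2 with a library left out, none of them at a guidance gene. TMM factors moved the median log2 fold change over all loops to 0.0034, against 0.15 without them, and the Slit3 loop to -0.59. With the replicate number as a block, loop strength gave 0 calls, and the differences in loops per 1000 (-0.401) and span (-63.75 kb) were the same by construction. The cause of these shifts was not tested. Median observed counts of 32 and 34 contacts in the hCG libraries and 36 and 32 in the PMSG libraries limit the precision of each ratio.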

Other observations

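For Sema3a and Robo1 the RefSeq promoter table places a gene start inside the annotated gene, and these internal starts lay at or near anchors although neither gene had an outer end at a loop. The Sema3a start at chr5 position 13396784, which is 206.7 kb from the nearer gene end, lay in the anchor of the Sema3d to Sema3a loop in hCG replicate 2, and 3.22 kb from that anchor in hCG replicate 1 and both PMSG libraries. The Robo1 start at chr16 position 72663149, which is 384.3 kb from the nearer gene end, lay in an anchor in both hCG libraries and in PMSG replicate 2, and 13.1 kb from one in PMSG replicate 1.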
